A study of Homo sapiens with 6 samples.

Results

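The septins described here are 9 genes that the deposited expression table lists under date-like names, the form a spreadsheet gives to the older symbols SEPT2 to SEPT11. Their rows were taken by a list of stored names, drawn up with earlier results of these data known. In it 2-Sep, 3-Sep, 5-Sep, 6-Sep, 7-Sep, 8-Sep, 9-Sep, 10-Sep and 11-Sep were read as septin 2, 3, 5, 6, 7, 8, 9, 10 and 11. The selenoprotein gene 15-Sep was left out, and the 4 other septins under date-like names, 1-Sep, 4-Sep, 12-Sep and 14-Sep, were not on the list. The listed septins are 9 of 26810 gene rows and 9 of the 28 rows with date-like names. The study asked how METTL1, the methyltransferase that makes N7-methylguanosine in tRNA, affects gene expression, by sequencing mRNA of U-937, a human monocytic leukemia cell line whose labels give a KMT2A-MLLT10 fusion. The line is otherwise generally described with PICALM-MLLT10, and the fusion was not tested here. Both groups came from a single Cas9-expressing clone: 3 libraries received the guide sgMETTL1.3 against METTL1 and 3 the control guide sgNS, both by lentivirus, with blasticidin at 10 µg/ml and hygromycin B at 200 µg/ml as selection and harvest at day 8 to 10 after transduction. Only 1 guide against METTL1 and only 1 clone are among the libraries, and the labels do not say whether replicates were separate cultures, so a p-value here sets a difference against a spread among libraries that may be technical.

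Values are TPM, a unit per transcript length, scaled by a factor for each library that gives the ERCC spike-ins, synthetic RNAs added to each sample, equal sums; this is called the spike-in scale below, and TPM is the same value without the factor. The read depth is unknown. The factors were 0.832 to 1.03 in sgMETTL1.3 libraries and 1.13 to 1.23 in sgNS libraries, and over all 12449 tested genes the median log2 fold change was -0.32 on the spike-in scale and 0.00 as TPM. METTL1 had 8.28, 5.94 and 7.42 on the spike-in scale in sgMETTL1.3 libraries, against 19.7, 22.0 and 20.3 in sgNS libraries, and it fell on both scales. Of 10 monocyte and myeloid markers, 9 were at 1 or more in every library and MPO was below 1 in all, and the summed level of the 10 ran from 1064 to 1300 in sgMETTL1.3 libraries and from 1831 to 1983 in sgNS libraries. The T cell markers CD3D and CD3G, the erythroid genes HBA1 and HBB, the platelet gene PF4 and the neuronal genes SNAP25 and STMN2 were at 0 in all 6 libraries. Of the other marker lists, 1 of 3 B cell markers was at 1 or more in every library, with the list summing to 4.26 to 8.18 in sgMETTL1.3 libraries and 3.69 to 5.31 in sgNS libraries. So were 1 of 5 platelet and megakaryocyte markers, with sums of 3.35 to 4.50 in sgMETTL1.3 and 4.74 to 5.82 in sgNS, and 2 of 4 markers of fibroblasts and endothelium, with sums of 35.9 to 40.0 in sgMETTL1.3 and 45.9 to 49.8 in sgNS. Their part in the results was not tested.

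Septins are GTP-binding proteins that assemble end to end into rods and filaments at membranes and on actin and microtubules. They are sorted by sequence into 4 homology groups, and a rod takes up members of different groups in a fixed order, with septin 7 as the sole human member of its group and the SEPTIN3 group present in the longer kind of rod. Septin filaments support the cleavage furrow in cytokinesis, stiffen the cell cortex of migrating leukocytes and form cages around bacteria inside cells. Protein was not measured here.

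On the spike-in scale septin 7 and the 3 tested members of the SEPTIN6 group fell, and septin 3 was the only septin with higher values in every sgMETTL1.3 library than in any sgNS library. Of the 9 septins, 8 reached a value of 1 in 3 or more libraries and were tested, and of these 4 fell, 0 rose and 4 did not pass the test (limma, adjusted p under 0.05). Among all tested genes, 49.3% fell and 6.40% rose, so the count of septins that fell was near the background. As TPM, 0 of the 8 septins fell and 1, septin 3, rose, where 26.6% of all tested genes fell and 24.4% rose. Without sgMETTL1.3 replicate 1, a library described below, 5 septins fell and 1 rose on the spike-in scale, where 61.4% of all tested genes fell and 6.43% rose, and 2 fell and 2 rose as TPM, where 35.4% fell and 34.7% rose. At an unadjusted limma p under 0.05, septin 3 also passed on the spike-in scale, at 0.0315, and septin 6 as TPM, at 0.0445. All genes past the adjusted threshold, at the shares given above, pass this looser one too, and its own share was not counted. The 8 septins had a median log2 fold change of -0.28 on the spike-in scale, beside the -0.32 of all tested genes, and 0.05 as TPM. In bulk RNA, fewer cells of a type and less RNA per cell cannot be told apart.

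**Figure D1:**
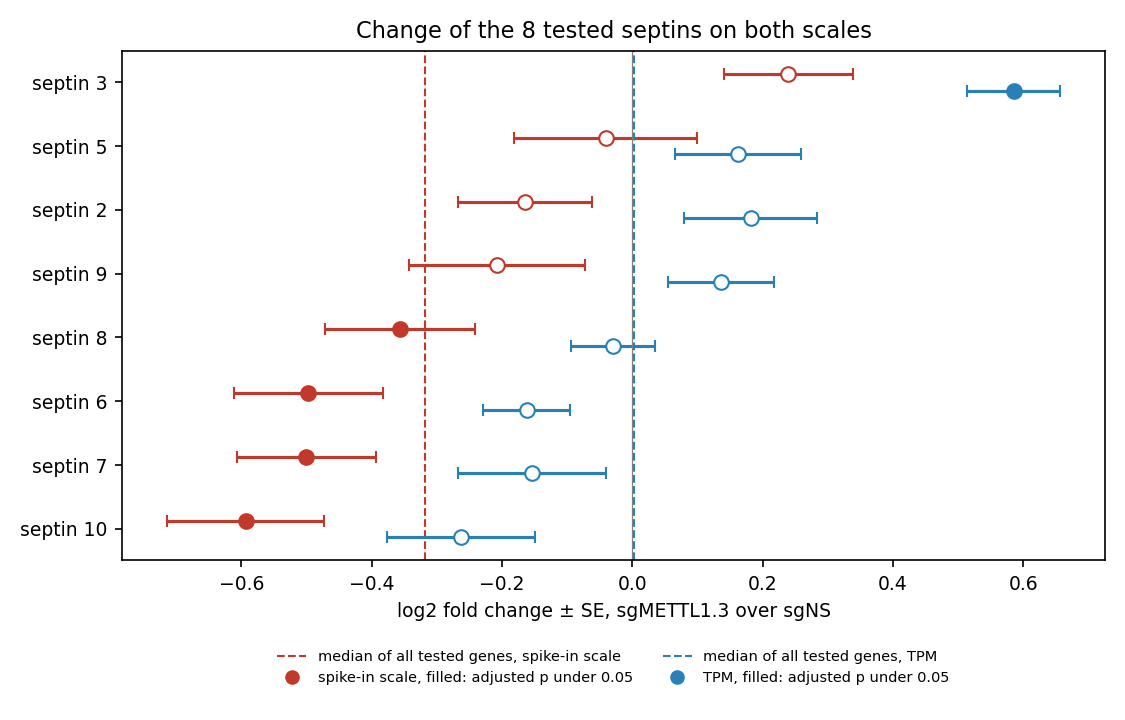
Log2 fold change of the 8 tested septins, sgMETTL1.3 over sgNS, with the standard error of the limma fit, on the spike-in scale (red) and as TPM (blue); filled points have an adjusted p under 0.05 and dashed lines are the medians of all tested genes. Septins 10, 7, 6 and 8 are filled and at or left of the spike-in median, and septin 3 is right of both medians and filled as TPM.

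Septin 7, a core subunit of septin rods, was the most abundant septin in each of the 6 libraries. Its gene lies on the plus strand at chr7:35800932-35907105 (GRCh38). The RefSeq promoter windows, from 250 bases before to 50 after an annotated start (GRCh38.p14), are shown for septins 7, 10 and 2. Septins 10 and 7 had the lowest log2 fold changes of the tested members on the spike-in scale, while as TPM septin 6 was below septin 7. Septin 2 followed septin 7 in level in 5 of the 6 libraries and did not pass the test. Capitals mark the palindrome CTCGCGAG, the core of the motif that the factor BANP recognises, in the septin 7 and septin 10 windows, a CCGGAAGT element of the ETS type, read here on the opposite strand, in the septin 10 window, and a CACGTG E-box, the motif of MYC and related factors, in the septin 2 window.
SEPTIN7 chr7:35800736-35801035 plus strand: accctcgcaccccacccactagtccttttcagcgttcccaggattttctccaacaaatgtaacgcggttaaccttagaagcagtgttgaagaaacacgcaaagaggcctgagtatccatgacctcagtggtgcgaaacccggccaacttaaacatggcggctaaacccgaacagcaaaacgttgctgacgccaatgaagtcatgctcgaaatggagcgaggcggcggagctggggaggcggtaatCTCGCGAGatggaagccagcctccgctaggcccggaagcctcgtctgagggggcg
SEPTIN10 chr2:109613917-109614216 minus strand: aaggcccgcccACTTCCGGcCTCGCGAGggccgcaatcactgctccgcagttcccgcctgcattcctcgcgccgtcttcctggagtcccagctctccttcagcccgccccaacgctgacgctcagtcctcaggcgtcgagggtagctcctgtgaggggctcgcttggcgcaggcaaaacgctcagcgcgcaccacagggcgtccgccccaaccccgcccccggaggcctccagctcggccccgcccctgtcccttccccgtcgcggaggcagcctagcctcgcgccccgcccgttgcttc
SEPTIN2 chr2:241315105-241315404 plus strand: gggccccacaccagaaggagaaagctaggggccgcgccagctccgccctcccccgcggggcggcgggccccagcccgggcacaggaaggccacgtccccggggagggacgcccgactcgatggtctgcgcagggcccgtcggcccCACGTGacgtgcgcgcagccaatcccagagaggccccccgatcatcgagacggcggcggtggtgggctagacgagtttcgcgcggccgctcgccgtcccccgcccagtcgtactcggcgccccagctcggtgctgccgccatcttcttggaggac
The 3 windows were each the RefSeq start nearest to the 5′ end of the GENCODE gene, and 7 of the 9 septins matched the RefSeq table by symbol. Of 35116 windows of the same length in that table, 1.02% held CTCGCGAG, 4.14% held CCGGAAGT and 7.26% held CACGTG, on either strand and with no overlap between these 3 motifs in the windows shown. The palindrome spanned the annotated start of septin 7, beginning at position -5 from it, and began at -230 in the septin 10 window. The windows of septins 6, 8, 9 and 11 held 0 matches to CTCGCGAG, CCGGAAGT or CACGTG, and septins 6 and 8 fell on the spike-in scale too. The septin 8 start lay 29229 bases from the 5′ end of its GENCODE gene. Any part of these motifs in the changes was not tested. The shorter motifs GGGCGG and CCAAT were also searched, and 45.0% and 34.6% of all windows held them: the septin 10 window held 6 matches to GGGCGG, the septin 2 window 3 and the septin 7 window 0, and CCAAT was found once each in the septin 2 and septin 7 windows. The windows held 22 CG dinucleotides for septin 7, 33 for septin 10 and 38 for septin 2, against a median of 14 over all windows.

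In the sgMETTL1.3 libraries septin 7 had 128, 138 and 159.7 on the spike-in scale, against 189, 210.1 and 203 in the sgNS libraries. Every sgMETTL1.3 library was below every sgNS library, with replicate 1 the lowest. The means were 142 ± 16.2 in sgMETTL1.3 and 200.5 ± 10.9 in sgNS (SD, n = 3 each), and septin 7 fell (log2 fold change -0.50, SE 0.107, limma adjusted p = 0.00138). As TPM the values were 125, 165 and 168 in sgMETTL1.3 libraries, against 167, 171 and 168 in sgNS libraries, so that the groups overlapped and the log2 fold change was -0.15 (limma adjusted p = 0.296). Without sgMETTL1.3 replicate 1 the TPM log2 fold change was -0.02 (limma adjusted p = 0.562), while on the spike-in scale it was -0.43 and past the threshold. A transcribed pseudogene, SEPT7P2, is listed separately; 6.4% of its 31-base words also occur in septin 7 transcripts, so reads could be split between the 2 rows. On the spike-in scale SEPT7P2 had 11.1, 10.8 and 12.4 in sgMETTL1.3 libraries, against 12.9, 13.7 and 12.8 in sgNS libraries, without passing the test. As TPM its log2 fold change was 0.13 (limma adjusted p = 0.268). Without sgMETTL1.3 replicate 1 it rose as TPM, at 0.21 (limma adjusted p = 0.00665).

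The SEPTIN6 group supplies the subunits next to septin 7 in the rods, and its tested members septin 6, septin 8 and septin 10 fell on the spike-in scale, while none of the 3 passed as TPM. Septin 10 (minus strand, chr2:109542982-109614206, GRCh38) had 12.1, 12.8 and 15.1 on the spike-in scale in sgMETTL1.3 libraries, against 19.0, 21.3 and 21.5 in sgNS libraries. It fell (log2 fold change -0.59, SE 0.121, limma adjusted p = 0.000991), the largest decrease among the 8 tested septins, and 26.5% of all tested genes had a lower log2 fold change. As TPM its groups still did not overlap, at 11.8, 15.4 and 15.95 in sgMETTL1.3 libraries against 16.8, 17.4 and 17.8 in sgNS libraries, and the log2 fold change was -0.26 (limma adjusted p = 0.0915). Septin 6, a partner gene of KMT2A in some leukemias (minus strand, chrX:119615724-119693370, GRCh38), had 20.2, 17.2 and 20.5 on the spike-in scale in sgMETTL1.3 libraries, against 26.1, 29.4 and 27.3 in sgNS libraries. The groups did not overlap, and septin 6 fell (log2 fold change -0.50, SE 0.114, limma adjusted p = 0.00225). As TPM its values were 19.7, 20.7 and 21.6 in sgMETTL1.3 libraries and 23.1, 23.97 and 22.6 in sgNS libraries, again without overlap, and the log2 fold change was -0.16 (limma adjusted p = 0.0792). Without sgMETTL1.3 replicate 1, septin 10 and septin 6 were past the threshold also as TPM, with log2 fold changes of -0.14 and -0.13 (limma adjusted p = 0.0279 and 0.0264).

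Septin 8 (minus strand, chr5:132750817-132807241, GRCh38) is expressed in many tissues. It had 14.04, 11.5 and 12.9 on the spike-in scale in sgMETTL1.3 libraries, against 16.4, 16.8 and 16.7 in sgNS libraries. The groups did not overlap and septin 8 fell (log2 fold change -0.36, SE 0.116, limma adjusted p = 0.0184), but it missed the threshold when sgMETTL1.3 replicate 2 or any 1 sgNS library was left out and with replicate numbers as a block (limma adjusted p = 0.0522). As TPM its values overlapped, at 13.7, 13.8 and 13.6 in sgMETTL1.3 libraries and 14.55, 13.65 and 13.8 in sgNS libraries, with a log2 fold change of -0.03. Septin 11 (plus strand, chr4:76949703-77040384, GRCh38), which takes the same place in rods in other cells, was listed at 0.154, 0.258 and 0.180 in sgMETTL1.3 libraries, against 0.237, 0.172 and 0.193 in sgNS libraries. It was below 1 in all libraries and was not tested.

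Septin 3 was the only tested septin with a positive log2 fold change on the spike-in scale, while as TPM septins 2, 5 and 9 had positive ones too. It belongs to the SEPTIN3 group and is known chiefly from neurons, where it is found at presynaptic terminals. Its gene lies on the plus strand at chr22:41969475-41998221 (GRCh38). On the spike-in scale it had 113, 104 and 122 in sgMETTL1.3 libraries, against 92.1, 98.8 and 95.0 in sgNS libraries. Every sgMETTL1.3 library was above every sgNS library, as for 8.66% of all tested genes, but the log2 fold change of 0.24 missed the threshold (its SE was 0.0995, limma adjusted p = 0.0555). As TPM it rose: the values were 109.95, 125 and 128 in sgMETTL1.3 libraries, against 81.6, 80.5 and 78.7 in sgNS libraries, with means of 121 ± 9.82 and 80.3 ± 1.43 (SD, n = 3 each). The log2 fold change as TPM was 0.59 (SE 0.0715, limma adjusted p = 0.000747), and 90.7% of all tested genes had a lower one. Without sgMETTL1.3 replicate 1, septin 3 passed on both scales, with log2 fold changes of 0.24 on the spike-in scale (limma adjusted p = 0.0418) and 0.65 as TPM. The 4 markers of neurons were below 1 in every library, at a summed level of 0.0949 to 0.431 in sgMETTL1.3 libraries and 0.192 to 0.362 in sgNS libraries.

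Septin 9, the broadly expressed member of the SEPTIN3 group, binds microtubules and actin and is another partner gene of KMT2A in leukemia. It lies on the plus strand at chr17:77280569-77500596 (GRCh38). On the spike-in scale septin 9 had 85.98, 58.0 and 67.6 in sgMETTL1.3 libraries, against 75.1, 83.8 and 83.1 in sgNS libraries. Replicate 1 of sgMETTL1.3 was the highest of the 6 libraries and the other 2 sgMETTL1.3 libraries were the lowest, and the log2 fold change of -0.21 did not pass (its SE was 0.135, limma adjusted p = 0.211). Without that replicate the log2 fold change was -0.36 and past the threshold (limma adjusted p = 0.00201). As TPM the values were 83.9, 69.7 and 71.3 in sgMETTL1.3 libraries, against 66.5, 68.3 and 68.9 in sgNS libraries, and although the groups did not overlap, the log2 fold change of 0.14 did not pass (limma adjusted p = 0.201).

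Septin 2 and septin 5 form the SEPTIN2 group, and neither passed on either scale. Septin 2, a ubiquitous subunit that binds myosin II during cytokinesis (plus strand, chr2:241315100-241354027, GRCh38), had 111, 115 and 133 on the spike-in scale in sgMETTL1.3 libraries, against 128, 136 and 138 in sgNS libraries. The groups overlapped through sgMETTL1.3 replicate 3 and sgNS replicate 1, and the log2 fold change was -0.16 (SE 0.103, limma adjusted p = 0.189). As TPM septin 2 had 108, 138 and 139.98 in sgMETTL1.3 libraries, against 113, 110.45 and 115 in sgNS libraries, and the log2 fold change was 0.18 (limma adjusted p = 0.177); without sgMETTL1.3 replicate 1 it was 0.30 and past the threshold (limma adjusted p = 7.43e-06). The gene overlaps HDLBP on the opposite strand by 1962 bases, and whether counting used strand is not stated. HDLBP reached 124 on the spike-in scale in its highest library, a level like that of septin 2. Septin 5, which takes part in vesicle release in neurons and platelets (plus strand, chr22:19714464-19724224, GRCh38), was near the filter, at 1.82, 1.29 and 1.35 in sgMETTL1.3 libraries, against 1.63, 1.47 and 1.55 in sgNS libraries. It overlaps the SEPT5-GP1BB read-through and GP1BB on the same strand, so reads could be shared, and both of those rows were below 1 in every library.

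**Figure D2:**
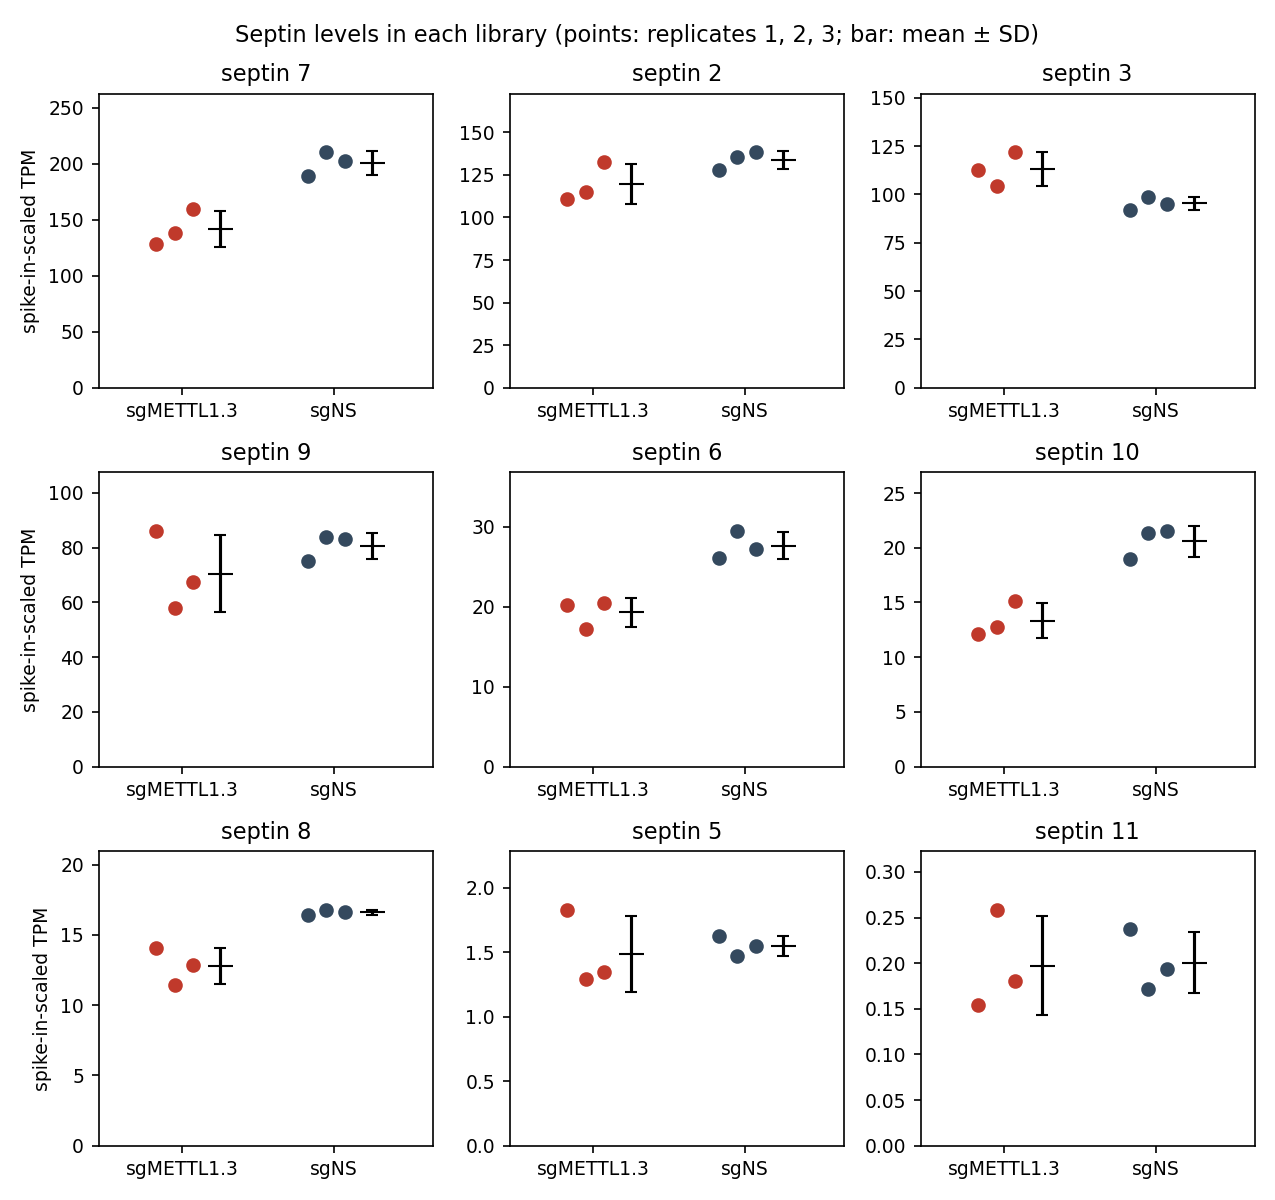
Level of each septin in each library on the spike-in scale (y axis, starting at 0), with sgMETTL1.3 libraries in red at left and sgNS libraries in blue at right, points from left to right being replicates 1 to 3 and bars the mean ± SD. The groups do not overlap for septins 7, 6, 10 and 8, which are lower in sgMETTL1.3, or for septin 3, which is higher.

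Among the 8 tested septins, 4 did not overlap between the groups in the lower direction on the spike-in scale and 1 in the higher direction, where 53.4% and 8.66% of all tested genes did so. As TPM, 2 did not overlap in the lower direction, septins 6 and 10, and 2 in the higher direction, septins 3 and 9, where 33.1% and 30.0% of all tested genes did so. The order of levels, which can be compared between genes because TPM is per length, was nearly the same in the 6 libraries. Septin 7 was highest, above at least 93.6% of the rows detected in each library, and septins 2, 3 and 9 followed. Septin 2 was above septin 3 in 5 libraries, while in sgMETTL1.3 replicate 1 septin 3 at 113 was just above septin 2 at 111. Septin 6, septin 10 and septin 8 came next in 5 libraries, with septin 8 above septin 10 in sgMETTL1.3 replicate 1. Septins 5 and 11 were lowest in all 6. The other septins stored as 1-Sep, 4-Sep, 12-Sep and 14-Sep were below 1 in every library, the highest value being 0.697 for 1-Sep in sgMETTL1.3 replicate 1.

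The summed level and the composition of the septin pool were compared next. On the spike-in scale the 9 septins summed to 486, 458 and 532 in sgMETTL1.3 libraries, against 547, 597 and 586 in sgNS libraries. The sums did not overlap, with a log2 ratio of -0.23 (exact two-sided permutation p = 0.1, the smallest that 3 against 3 can give). As TPM they were 474, 550.2 and 561 in sgMETTL1.3 libraries, against 484, 487 and 486 in sgNS libraries, with a log2 ratio of 0.12 (exact two-sided permutation p = 0.4), so the direction of the sum depended on the scale. The share of each septin in this sum is free of the library factor. Septin 3 made up 23.2%, 22.8% and 22.9% of the sum in sgMETTL1.3 libraries, against 16.8%, 16.5% and 16.2% in sgNS libraries. The difference of 6.41 percentage points in septin 3 was larger than the SD within either group, of 0.215 points in sgMETTL1.3 and 0.316 in sgNS. Septin 7 made up 26.4%, 30.1% and 30.02% in sgMETTL1.3 libraries, against 34.5%, 35.2% and 34.6% in sgNS libraries, a difference of -5.92 points. Septin 6 had a share of 3.92 ± 0.200% in sgMETTL1.3 and 4.78 ± 0.138% in sgNS, and septin 10 a share of 2.71 ± 0.188% in sgMETTL1.3 and 3.57 ± 0.0992% in sgNS (SD, n = 3 each). These 4 shares did not overlap between the groups, and each had p = 0.1 in the exact two-sided permutation test, or 0.225 adjusted over the 9 septins. For comparison, 33.1% of all tested genes did not overlap as TPM in the lower direction and 30.0% in the higher, so non-overlap of single genes was common. A share of a sum is another measure than the TPM of a gene, and shares of other sums were not computed. Shares of a sum move against each other, so the differences of septin 3 and septin 7 are not separate results. The shares of septins 2, 5, 8, 9 and 11 overlapped. Without sgMETTL1.3 replicate 1, 3 of these no longer did: the difference was 1.82 points for septin 2, -0.42 for septin 8 and -1.29 for septin 9, against 1.09, -0.28 and 0.38 points with it. For septins 3, 7, 6 and 10 the difference without that library was 6.30, -4.69, -0.97 and -0.75 points, against 6.41, -5.92, -0.86 and -0.86 with it.

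By homology group, the SEPTIN3 group took 37.3 ± 3.09% of the sum in sgMETTL1.3 and 30.5 ± 0.104% in sgNS, while the SEPTIN7 group took 28.8 ± 2.14% in sgMETTL1.3 and 34.7 ± 0.373% in sgNS (SD, n = 3 each). The SEPTIN6 group took 9.28 ± 0.247% in sgMETTL1.3 and 11.3 ± 0.0702% in sgNS. The SEPTIN2 group took 24.6 ± 1.20% in sgMETTL1.3 and 23.5 ± 0.480% in sgNS, with overlap; without sgMETTL1.3 replicate 1 the groups did not overlap and the difference was 1.82 points, against 1.12 with it. The shares of the SEPTIN3, SEPTIN7 and SEPTIN6 groups did not overlap (exact two-sided permutation p = 0.1 each, 0.133 adjusted over the 4 groups). Without sgMETTL1.3 replicate 1 their differences were 5.01, -4.69 and -2.13 points, against 6.79, -5.92 and -1.99 with it. Among all tested genes, taken singly and not as shares, 33.1% did not overlap as TPM in the lower direction and 30.0% in the higher. The shares of the homology groups too depend on each other. Transcripts of the SEPTIN3 group were thus the largest of the 4 shares in every sgMETTL1.3 library, and those of septin 7 the largest in every sgNS library.

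**Figure D3:**
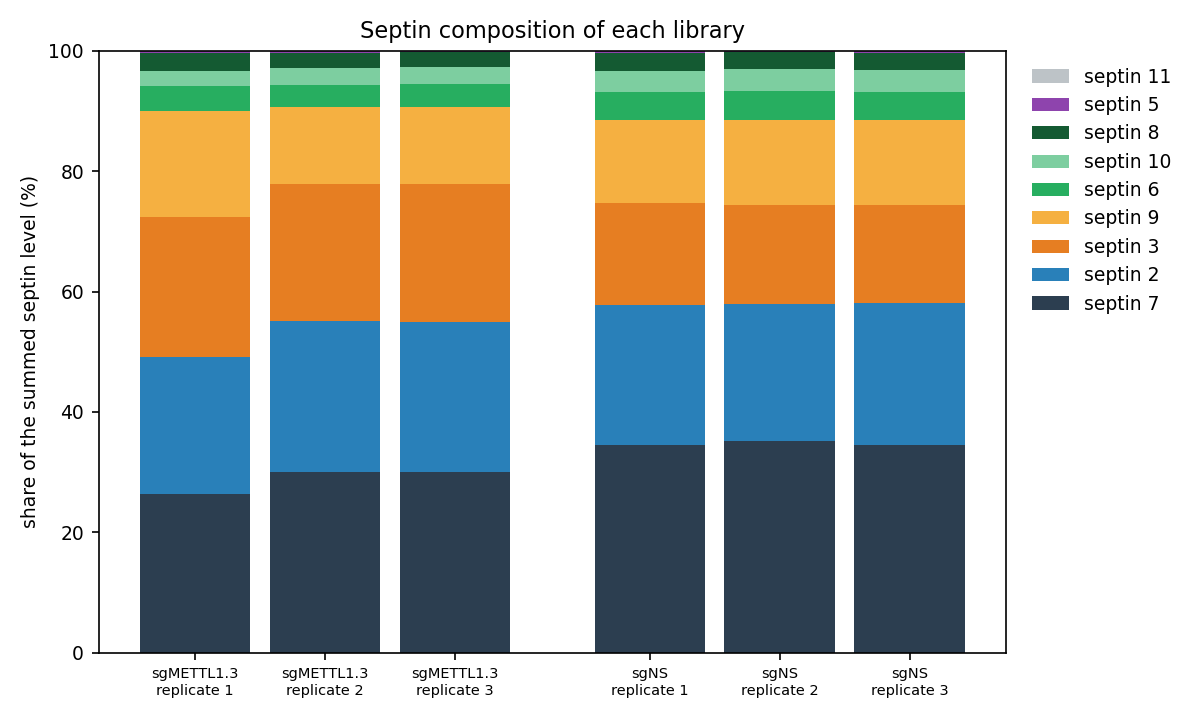
Share of each septin in the summed level of the 9 septins (y axis, percent) in each library, sgMETTL1.3 at left and sgNS at right. The septin 3 segment covers 22.8% to 23.2% of the sgMETTL1.3 bars and 16.2% to 16.8% of the sgNS bars, and the septin 7 segment is shorter in sgMETTL1.3.

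Ratios between pairs of septins, of which 6 were computed, are also free of the library factor. Septin 3 over septin 7 was 0.880, 0.757 and 0.762 in sgMETTL1.3 libraries, against 0.488, 0.470 and 0.469 in sgNS libraries. Septin 3 over septin 9, its broadly expressed relative, was 1.31, 1.80 and 1.80 in sgMETTL1.3 libraries, against 1.23, 1.18 and 1.14 in sgNS libraries. Septin 2 over septin 7 was 0.867, 0.834 and 0.832 in sgMETTL1.3 libraries, against 0.677, 0.645 and 0.682 in sgNS libraries. Septin 9 over septin 7 was 0.671, 0.421 and 0.424 in sgMETTL1.3 libraries, against 0.398, 0.399 and 0.410 in sgNS libraries, so the size of its difference rested largely on sgMETTL1.3 replicate 1. These 4 ratios were higher in every sgMETTL1.3 library than in any sgNS library (exact two-sided permutation p = 0.1 each, 0.15 adjusted over the 6 ratios). Each of them holds septin 3 or septin 7, so they restate the differences in share and are not further results. Ratios of other gene pairs were not computed, and as TPM 33.1% of all tested genes did not overlap in the lower direction and 30.0% in the higher. Within the SEPTIN6 group the ratios overlapped: septin 8 over septin 6 averaged 0.664 ± 0.0338 in sgMETTL1.3 and 0.603 ± 0.0308 in sgNS, and septin 10 over septin 6 averaged 0.694 ± 0.0798 in sgMETTL1.3 and 0.747 ± 0.0362 in sgNS (SD, n = 3 each).

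Several septins set sgMETTL1.3 replicate 1 apart from its group. Transcript GC content over the GENCODE transcripts of each gene was 38.5% for septin 7, 43.7% for septin 10, 45.0% for septin 2, 52.2% for septin 8, 52.7% for septin 3, 60.9% for septin 9 and 63.1% for septin 5, against a median of 49.3% over tested genes. On the log2(TPM + 1) scale, replicate 1 was offset from the mean of replicates 2 and 3 by -0.41 for septin 7, -0.38 for septin 10, -0.36 for septin 2, -0.20 for septin 3, -0.10 for septin 6, 0.00 for septin 8, 0.16 for septin 5 and 0.25 for septin 9. The 3 tested septins of GC content below that median were low in that library and the 2 of highest GC content were high, while septins 3 and 8, somewhat above the median, and septin 6, between the median and septin 8, were low or level. The part of GC content in the results on septins 2, 7, 9 and 10 was not tested, and their values without the library are given above. Septin 3 had shares of 22.8% and 22.9% in the other 2 sgMETTL1.3 libraries, so its higher share was nearly as large without replicate 1.

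**Figure D4:**
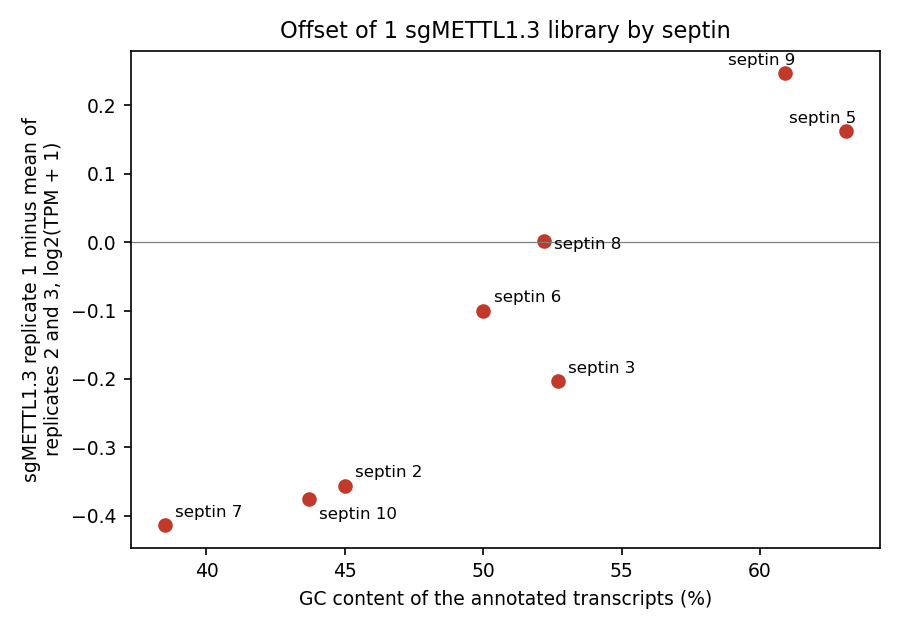
Offset of sgMETTL1.3 replicate 1 from the mean of replicates 2 and 3 on the log2(TPM + 1) scale (y axis) against the GC content of the annotated transcripts (x axis) for the 8 tested septins. Septins 7, 10 and 2 lie at lower left, at -0.41 to -0.36, and septins 9 and 5 at upper right, at 0.25 and 0.16.

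Genes that work with septins were counted in 4 lists. Of the 12 genes of the spindle midzone and cleavage furrow, which position and drive the ring that septins line, 11 fell and 0 rose on the spike-in scale, and 4 fell as TPM, where 49.3% of all tested genes fell on the spike-in scale and 26.6% as TPM. Furrow genes had a median of -0.52 in log2 fold change on the spike-in scale, beside -0.32 for all tested genes, and of -0.17 as TPM, beside 0.00. KIF23, a midzone kinesin, averaged 44.8 ± 3.80 in sgMETTL1.3 and 86.0 ± 4.597 in sgNS (SD, n = 3 each) and fell (log2 fold change -0.93, limma adjusted p = 9.26e-06). PRC1, which bundles midzone microtubules, fell (-0.80), as did RACGAP1 (-0.66) and the citron kinase gene CIT (-0.72), and these 4 genes also fell as TPM. Of 8 tested septin-binding and CDC42 pathway genes, 5 fell and 0 rose on the spike-in scale, and 2 fell and 1 rose as TPM. Over all tested genes 49.3% fell and 6.40% rose on the spike-in scale, and 26.6% fell and 24.4% rose as TPM. CDC42EP3, a Borg protein that binds septins directly, had 60.1, 59.7 and 70.2 in sgMETTL1.3 libraries, against 103, 112.5 and 110.4 in sgNS libraries, and fell (log2 fold change -0.77, limma adjusted p = 3.72e-05; -0.43 as TPM). MAP4, a microtubule-associated protein that binds septin 2, fell on both scales (-0.73 on the spike-in scale and -0.385 as TPM), while CDC42EP4 (-0.47) and ANLN (-0.32), which encodes the furrow scaffold anillin, fell on the spike-in scale and did not pass as TPM. As TPM without sgMETTL1.3 replicate 1, 8 furrow genes fell and 1 rose, and 3 septin-binding genes fell and 5 rose, where 35.4% of all tested genes fell and 34.7% rose.

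Of 11 tested genes of cortical actin and myosin II, 3 fell on the spike-in scale, where 49.3% of all tested genes fell, and 2 fell and 5 rose as TPM, where 26.6% fell and 24.4% rose. The formin gene DIAPH1 fell (-0.73 on the spike-in scale, -0.39 as TPM), as did the myosin light chain gene MYL12A (-0.66 on the spike-in scale, -0.31 as TPM), while DIAPH3 fell on the spike-in scale (-0.48) and did not pass as TPM. Without sgMETTL1.3 replicate 1, 8 of these genes fell on the spike-in scale, where 61.4% of all tested genes fell. Of 9 genes of the ESCRT machinery, which cuts the bridge between daughter cells at the end of cytokinesis, 2 fell on the spike-in scale, beside the 49.3% of all tested genes, and 0 fell and 5 rose as TPM, beside 26.6% and 24.4%. The 2 that fell were CHMP4B, at 193, 152.5 and 179.6 in sgMETTL1.3 libraries against 231, 254 and 244 in sgNS libraries, and PDCD6IP (-0.37). Neither passed as TPM, where the log2 fold changes were -0.13 for CHMP4B and -0.02 for PDCD6IP. Genes of the lists were named by smallest p on the spike-in scale, so those that rose as TPM are not named.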

How the data were processed

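Per the labels' protocols, an mRNA kit was used on 300 ng of total RNA, with ERCC spike-ins. Per the submitters' processing notes, cutadapt, STAR and RSEM were used with GRCh38 and hg38; their versions, the gene annotation and the strandedness used are not given here. The deposited signal values are TPM in steps of 0.01 times 1 factor per library, read from the values: every library has the same sum, 38252, over its 92 spike-in rows. Scaling all rows of a library to a sum of 1000000 gave TPM. Depth is unknown, so no counting interval is given.

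Rows other than spike-ins that reached 1 in 3 or more of 6 libraries were fitted on log2(value + 1) by limma 3.58.1 under R 4.3.3 with trend, robust and no block, with Benjamini-Hochberg adjustment over all tested genes at 0.05; such fold changes understate the change of low genes. Sums, shares and ratios used exact two-sided permutation tests. Members and lists were chosen with earlier results of these data known. All 9 members and METTL1 are named, with up to 4 genes of smallest p per list; the 3 promoter motifs in capitals were chosen after their windows were seen. GENCODE release 29 (GRCh38) gave coordinates, overlaps and GC content, the last for 94.4% of the genes tested. Promoter windows are from RefSeq (GRCh38.p14). Alternatives were other scalings, pseudocounts, filters, the fit without trend, a block for replicate number, and leaving out each library.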

Additional observations from a re-analysis of the deposited data

How the results depend on the processing

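The directions of septins 2, 5 and 9, and the calls of septins 2, 3, 6, 7, 8 and 10, turned on the scaling. As TPM, with median-ratio rescaling and with quantile normalization, the log2 fold changes were 0.18, 0.20 and 0.28 for septin 2, 0.16, 0.18 and 0.0091 for septin 5, 0.59, 0.60 and 0.67 for septin 3, 0.14, 0.15 and 0.21 for septin 9, -0.16, -0.15 and -0.13 for septin 6, -0.03, -0.02 and -0.026 for septin 8, -0.26, -0.25 and -0.25 for septin 10 and -0.15, -0.14 and -0.062 for septin 7. Septin 3 passed under all 3 and septin 2 under quantiles, so 1, 1 and 2 septins rose and 0 fell in each; the summed level had log2 ratios of 0.12 as TPM and 0.13 with median ratios. As TPM without sgMETTL1.3 replicate 1, 2 septins rose and 2 fell, with log2 fold changes of 0.30 for septin 2, 0.11 for septin 5, 0.65 for septin 3, 0.054 for septin 9, -0.031 for septin 8 and -0.02 for septin 7. With the replicate block septin 8 stayed at -0.36 (limma adjusted p = 0.0522), leaving 3 septins lower, where 5861 of 12449 tested genes were lower. On the log2(TPM + 1) scale, deviations of same-numbered libraries from their group means had correlations of -0.016, 0.003 and -0.045 for numbers 1 to 3. That scale is free of the library factor and each group has only 3 libraries, so these values cannot tell whether same-numbered libraries shared a culture or preparation.

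Of all tested genes, those higher numbered 3021, 3186 and 2978, and lower 3295, 3333 and 3231, under the 3 scalings, 4231 higher as TPM without sgMETTL1.3 replicate 1, and 510 higher when only genes averaging at least 5 were tested, which are fewer. In the same order of 3 scalings and then TPM without that library, septin-binding genes had 1, 1, 2 and 5 higher and 2, 2, 2 and 3 lower, actin and myosin genes 5, 4, 5 and 7 higher, and ESCRT genes 5, 6, 7 and 7 higher and 0, 0, 0 and 1 lower. Furrow genes had 4 lower under each of the 3 scalings, and 8 lower and 1 higher under the last.

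Leaving out 1 library each gave, on the spike-in scale, 0 to 1 septins higher and 3 to 5 lower. In the same fits 534 to 1037 of all tested genes were higher and 4880 to 7538 lower, of 12279 to 12337 tested. The log2 fold changes were -0.24 to -0.11 for septin 2, -0.14 to 0.016 for septin 5, 0.18 to 0.30 for septin 3, -0.36 to -0.079 for septin 9 and -0.42 to -0.29 for septin 8. Septins 6, 7 and 10 passed each time. Septin 2 passed without sgMETTL1.3 replicate 3 and septin 3 without sgMETTL1.3 replicate 1 or 2. Leaving out 1 library each also gave 3 to 6 septin-binding genes lower (3 without sgNS replicate 2 or 3), and 0 to 1 actin and myosin genes higher and 3 to 8 lower. These stand beside the same ranges for all tested genes. The share of septin 9 differed by -1.29 to 1.22 points, of septin 5 by -0.0016 to 0.0594 and of septin 11 by -0.0023 to 0.0101. METTL1 stayed lower under all 16 alternatives. The unknown depth limits septins 5 and 11. The causes were not tested.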

Other observations

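Over the 6 libraries, the genes whose log2(value + 1) profile was most like that of septin 7, by the root mean square difference of centred profiles on the spike-in scale, were AQR, which encodes a helicase of the spliceosome, at 0.0114, VPS29, a subunit of the retromer, at 0.0149, and DENND4A, an activator of Rab proteins, at 0.0169. The median over the 10132 genes compared was 0.223. The named genes are the smallest of 10132 differences over only 6 libraries, on a scale where all genes share the library factor. A link between these genes and septin 7 was not tested. SEPT7-AS1, a long non-coding RNA next to septin 7 on the opposite strand, had 0.861, 3.19 and 2.09 in sgMETTL1.3 libraries, against 1.20, 3.15 and 2.33 in sgNS libraries, and did not pass the test.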
